A study of Homo sapiens with 7 samples.

Results

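LINC-named RNAs are long intergenic noncoding RNAs that carry a numbered placeholder name and, in most cases, no assigned function. The RNAs described here are the rows of the deposited gene table whose symbol is LINC followed by a number and which had at least 10 counts in at least 2 of 5 RNA-seq libraries. They number 102 of 613 such rows, in a table of 57773 genes; 1 further row with a LINC symbol is left out by the rule. The members were chosen by their counts in these libraries, so the number of detected RNAs is a description and no result.

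The series concerns APE1 (gene APEX1), the base excision repair endonuclease, and its binding to G-quadruplexes, folded structures of guanine-rich DNA. RNA was sequenced from MDA-MB-231, an established human triple-negative breast cancer line, in 2 libraries labelled KD and 3 labelled parent. The labels do not spell out KD, and their protocol text describes APE1-knockout cells transduced with doxycycline-inducible APE1 constructs. Which construct or doxycycline state the KD libraries had, whether the KD cells are a clone, and whether replicates were separate cultures is not stated. The p-values therefore reflect the spread among these 5 libraries alone, which may be technical. APEX1 had 640 and 753 counts in KD libraries 1 and 2, against 1936, 1936 and 2413 counts in parent libraries 1, 2 and 3, which follows the labels.

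Library totals were 14677006 to 18049386 counts. Of the markers fixed for the line, VIM (2147 to 2381 CPM, library-scaled counts), CD44, AXL, CAV1, KRT8 and KRT18 were high in all 5 libraries, and ESR1 and KRT5 were at 0. Several markers differed between the groups by the edgeR quasi-likelihood test used below for the RNAs. SPARC, low for a marker listed as present, had 4.83 ± 1.21 CPM in KD and 0.675 ± 0.224 CPM in parent (7.15-fold higher, edgeR adjusted p = 0.00134). CDH1, listed as low or absent, had 7.70 ± 1.37 CPM in KD and 3.51 ± 0.430 CPM in parent (2.19-fold higher, edgeR adjusted p = 0.00587). ERBB2, also listed as low or absent, was 1.21-fold higher in KD (161 ± 6.26 CPM in KD and 133 ± 11.2 CPM in parent) and KRT8 1.16-fold higher, while CD44 was 1.27-fold and AXL 1.25-fold lower. EPCAM, listed as low or absent, had 8.52 to 10.9 CPM in KD and 11.8 to 13.0 CPM in parent and was not called. Of 9 measured markers of leukocytes, endothelium and fibroblasts, PTPRC, CD3E, LYZ and DCN had no count in any library. The 9 markers summed to 28.5 to 32.3 CPM in KD libraries and 25.4 to 36.0 CPM in parent libraries, with COL1A1 and CD14 as the main contributors. CD14, a monocyte marker, had 5.12 ± 0.711 CPM in KD and 8.42 ± 1.49 CPM in parent (1.64-fold lower, edgeR adjusted p = 0.0391), and COL1A1 was not called. The part of these markers in the results was not tested.

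Long intergenic noncoding RNAs are made by RNA polymerase II, and most are capped, spliced and polyadenylated like mRNAs. Many are present at low levels and in few cell types. Some act on genes at their own locus, others bind proteins or other RNAs elsewhere in the cell, and a number of LINC symbols were later replaced when a function, a host gene or a small encoded protein was described.

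The promoters shown here bear on the subject of the series, since G-quadruplexes form from runs of guanines. They belong to the 4 RNAs that passed the test described below and whose promoter held such a motif (LINC01116, LINC00668, LINC00842 and LINC01003), and to 2 without one that changed strongly, MANCR (LINC00704) and LINC00601. The windows run from 250 bases before to 50 bases after the RefSeq gene start on GRCh38.p14, 5′ to 3′, on the strand listed. Capitals mark the motif, which is 4 runs of at least 3 G (GGG) with 1 to 7 bases of any kind between runs, searched on both strands, so that runs of C mark a motif on the opposite strand. Overlapping matches are joined into 1 stretch.
LINC01116, chr2:176637560-176637859, minus strand: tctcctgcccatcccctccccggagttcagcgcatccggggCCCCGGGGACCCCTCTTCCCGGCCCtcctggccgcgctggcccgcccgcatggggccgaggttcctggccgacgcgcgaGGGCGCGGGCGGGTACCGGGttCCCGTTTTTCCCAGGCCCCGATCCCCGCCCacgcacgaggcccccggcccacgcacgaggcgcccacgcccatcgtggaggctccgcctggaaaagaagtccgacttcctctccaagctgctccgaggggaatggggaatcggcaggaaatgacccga
LINC00668, chr18:6929820-6930119, minus strand: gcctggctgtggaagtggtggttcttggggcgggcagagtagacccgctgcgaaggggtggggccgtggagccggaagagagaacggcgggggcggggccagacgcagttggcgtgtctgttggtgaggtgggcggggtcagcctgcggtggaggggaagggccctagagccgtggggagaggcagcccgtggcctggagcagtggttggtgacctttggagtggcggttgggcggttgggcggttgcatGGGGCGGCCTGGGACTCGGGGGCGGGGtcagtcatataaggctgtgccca
LINC00842, chr10:46398112-46398411, plus strand: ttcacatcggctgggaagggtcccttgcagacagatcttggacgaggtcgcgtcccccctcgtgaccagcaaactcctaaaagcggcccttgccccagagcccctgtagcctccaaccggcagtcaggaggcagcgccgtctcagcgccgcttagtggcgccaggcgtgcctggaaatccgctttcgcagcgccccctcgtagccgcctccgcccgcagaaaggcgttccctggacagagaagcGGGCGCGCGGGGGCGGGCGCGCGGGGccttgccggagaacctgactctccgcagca
LINC01003, chr7:152463874-152464173, plus strand: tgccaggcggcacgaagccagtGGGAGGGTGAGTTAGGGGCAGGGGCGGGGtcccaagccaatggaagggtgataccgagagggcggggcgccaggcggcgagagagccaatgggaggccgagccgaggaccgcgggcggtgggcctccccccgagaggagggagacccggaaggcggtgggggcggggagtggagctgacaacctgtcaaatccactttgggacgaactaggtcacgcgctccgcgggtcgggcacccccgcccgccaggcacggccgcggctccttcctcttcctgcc
LINC00704 (MANCR), chr10:4678021-4678320, minus strand: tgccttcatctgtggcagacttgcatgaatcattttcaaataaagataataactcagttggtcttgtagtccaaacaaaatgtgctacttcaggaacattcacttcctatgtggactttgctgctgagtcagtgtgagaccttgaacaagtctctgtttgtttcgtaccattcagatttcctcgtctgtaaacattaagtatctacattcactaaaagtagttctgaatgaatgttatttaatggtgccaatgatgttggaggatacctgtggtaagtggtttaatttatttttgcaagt
LINC00601, chr10:126421830-126422129, minus strand: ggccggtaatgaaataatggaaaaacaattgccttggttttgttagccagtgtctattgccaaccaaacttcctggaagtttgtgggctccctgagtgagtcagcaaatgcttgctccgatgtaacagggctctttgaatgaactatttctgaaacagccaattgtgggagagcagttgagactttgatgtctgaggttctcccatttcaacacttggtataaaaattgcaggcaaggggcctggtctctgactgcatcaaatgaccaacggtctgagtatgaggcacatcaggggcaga
The LINC01116 promoter held 3 separate stretches, beginning 209, 130 and 108 bases before the start, of which the middle one had its G runs on the listed strand. In LINC00668 the stretch covered the first 27 bases from the gene start, in LINC00842 it spanned the start itself, and in LINC01003 it began 228 bases before it. GC content was 72.7% in the LINC01116 window, against 36.7% in that of MANCR and 46% in that of LINC00601, which held no match.

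A RefSeq promoter was found for 80 of 102 members. Of these, 22 held the motif (27.5%), beside 25.0% of all 35116 promoters in the table. Among members that passed the test it was 4 of 15 (2 of 9 lower and 2 of 6 higher in KD), and among those that did not pass it was 18 of 64. These are counts of letters in a window, with no measure of APE1 binding, and the median GC content was 62.8% for the members and 58.7% for all promoters.

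In KD cells 8 LINC-named RNAs rose and 12 fell, and 81 did not pass the test. LINC01139, MANCR, LINC00668 and LINC00996 had no count in either KD library, LINC00654 fell 10.7-fold, LINC01059 6.26-fold and LINC01116 2.42-fold. Rises reached 3.22-fold for LINC00528 and 3.11-fold for LINC00601. LINC00654 and the RNAs with no count in KD met the minimum count of the rule in parent libraries alone. The rule admitted 7 members that way and 1, LINC00528, through KD libraries alone. Nothing is therefore read from the larger size of the losses. NORAD (LINC00657), which gave about as many reads as all other members together, had levels that overlapped between the groups.

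The 20 calls are 19.8% of the 101 members tested (edgeR quasi-likelihood test, Benjamini-Hochberg adjusted p under 0.05), where 21.5% of all 16198 tested genes were called. This is near the background. Of the tested members 7.92% were called higher and 11.9% lower, beside 9.15% and 12.4% of all tested genes. The median log2 fold change was -0.04 over the members and 0.000845 over all tested genes. KD and parent levels did not overlap for 43 of 101 members (42.6%), beside 51.4% of all tested genes, and 23 of these 43 were not called.

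The number of calls depended on single libraries, and so did the number over all tested genes. Without parent replicate 2, 2029 of 16056 tested genes were called, against 3485 of 16198 with all libraries. Without parent replicate 1, 3383 of 15964 were called, and without parent replicate 3, 2703 of 16030. The number of members called was 20 without parent replicate 1 and 14 without parent replicate 3. It was 10 without KD replicate 1 (2 higher, 8 lower), 12 without KD replicate 2 (4 higher, 8 lower) and 12 without parent replicate 2 (3 higher, 9 lower). DESeq2 called 11 members (3 higher, 8 lower), beside 2707 of all 19287 genes it tested. The authors' deposited table likewise lists 11 members below an adjusted p of 0.05, 3 higher and 8 lower. Of all genes with an adjusted p there, 13.6% were below 0.05. All 11 in the authors' deposited table were among the 20.

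The minimum of 10 counts could itself favour RNAs that differ. It was met in libraries of only 1 group by 8 members, and 6 of these are among the calls (5 lower, 1 higher). They include the 4 RNAs with no count in KD, where 1.11% of all tested genes had none. They also make up 6 of the 10 calls of at least 2-fold (7 lower and 3 higher), where 4.2% and 1.35% of all tested genes were called that far lower and higher. Since the minimum chose these RNAs, nothing is read from those counts. Of the other 94 members 93 were tested, and 7 rose and 7 fell (15.1%), beside 20.3% of the 15662 tested genes with at least 10 counts in a library of each group (9.25% higher and 11% lower). At the edge of the rule stood LINC00319, with 10 and 9 counts in KD and 21, 7 and 9 in parent, and LINC00887, with 10 and 0 counts in KD and 11, 0 and 6 in parent. Just outside it were 6 rows with a second-highest count of 9, among them LINC01134 (6 and 9 counts in KD; 10, 8 and 9 in parent) and LINC00478 (0 and 0 in KD; 5, 14 and 9 in parent). The listing of LINC00887 at 0 in 1 library of each group shows that an RNA near 10 counts can be listed at 0 beside a library of its own group that has it.

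**Figure D1:**
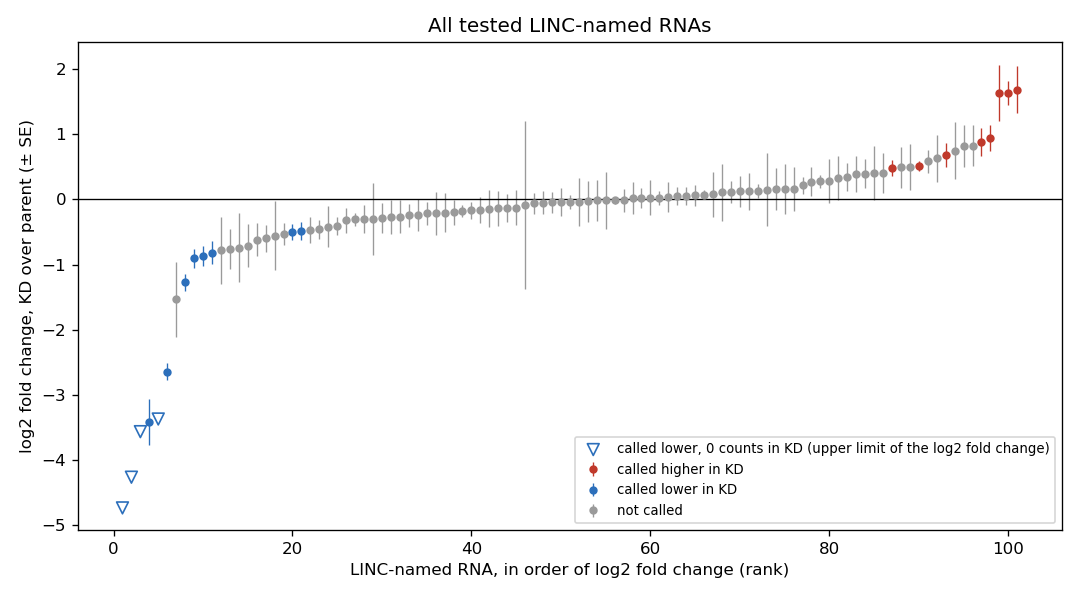
Log2 fold change of KD over parent with its standard error for the 101 tested LINC-named RNAs, in rank order; open triangles are the 4 RNAs with no count in KD, drawn at the upper limit that 3 counts over both KD libraries allow. Most of the 81 RNAs not called (grey) lie within 1 log2 unit of 0, and the called losses (blue) at the left lie furthest from 0. Nothing is read from that distance, since the 4 RNAs with no count in KD met the minimum count in parent libraries alone.

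Calls were spread over low and high levels. With a mean of at least 5 CPM, 7 of 31 members were called (22.6%), beside 24.4% of all tested genes at that level. Between 1 and 5 CPM it was 9 of 52 (17.3%, beside 15.4%), and under 1 CPM 4 of 18 (22.2%, beside 10.6%). In the lowest class 2 fell to 0 counts and 2 rose, and 3 of these 4 had met the minimum of 10 counts in 1 group only, so nothing is read from that share.

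Losses began with the 4 RNAs that had no count in KD. LINC01139 had 0 and 0 counts in KD, against 38, 45 and 43 counts in parent, or 2.63 ± 0.380 CPM (SD, n = 3). MANCR, the mitotically associated long noncoding RNA described in breast cancer cells, had 0 and 0 counts in KD, against 32, 29 and 30 counts in parent (1.90 ± 0.197 CPM). Both were even across the parent libraries. LINC00668 had 0 and 0 counts in KD, against 12, 14 and 32 counts in parent. LINC00996 had 0 and 0 counts in KD, against 25, 6 and 19 counts in parent, so these 2 RNAs varied more among parent libraries.

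A fold against a group at 0 is only a lower bound. Set against 3 counts over both KD libraries (0.0988 CPM), LINC01139 was at least 26.7-fold lower in KD, MANCR at least 19.2-fold, LINC00668 at least 11.8-fold and LINC00996 at least 10.4-fold. The bounds take in counting error alone, and a 0 in a table of estimated counts may also be a failed estimate. The edgeR adjusted p was 0.000656 for LINC01139, 0.00099 for MANCR, 0.00909 for LINC00668 and 0.0199 for LINC00996. LINC00996 was not called without KD replicate 1 (edgeR adjusted p = 0.069) or without KD replicate 2 (0.0674). Without parent replicate 1 or without parent replicate 3, LINC00996 was below the filter and not tested, so its call could not be checked there. In bulk libraries, fewer cells with an RNA and less of it per cell cannot be told apart.

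LINC00654 and LINC01059 were still detected. LINC00654 had 6 and 3 counts in KD, against 59, 47 and 50 counts in parent, which is 0.299 ± 0.151 CPM in KD (n = 2) and 3.26 ± 0.489 CPM in parent (n = 3). Its log2 fold change was -3.42 ± 0.358 (SE, edgeR adjusted p = 0.00105). LINC01059 had 68 and 56 counts in KD, against 391, 364 and 485 counts in parent, or 4.10 ± 0.718 and 25.6 ± 1.26 CPM, with no overlap. Its log2 fold change was -2.65 ± 0.129 (edgeR adjusted p = 6.02e-05).

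RefSeq lists LINC01059 as another name of GRAMD1B, a protein-coding gene for a sterol transport protein. GRAMD1B has its own row in the deposited table. It had 816 and 951 counts in KD, against 6757, 6126 and 7633 counts in parent, and fell 7.32-fold (58.1 ± 4.03 CPM in KD, 426 ± 6.65 CPM in parent; adjusted p = 8.41e-06). Strand use in the counting is not given in the sources used here, so reads of the noncoding row and of GRAMD1B cannot be told apart. The same holds for LINC00341, now under SYNE3 in RefSeq: LINC00341 had 1.81 ± 0.256 CPM in KD and 2.74 ± 0.125 CPM in parent (adjusted p = 0.0869), and SYNE3 fell 1.54-fold.

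LINC01116, on chromosome 2, whose promoter is printed above, fell evenly. It had 4.81 and 4.10 CPM in KD libraries 1 and 2, against 10.7, 10.9 and 10.7 CPM in parent libraries 1, 2 and 3 (log2 fold change -1.27 ± 0.125, edgeR adjusted p = 0.000832). Every KD value was below every parent value. LINC01117, another member with the same protein-coding neighbours, had 11 and 11 counts in KD and 9, 15 and 8 counts in parent, with a log2 fold change of 0.11 ± 0.441.

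Smaller losses were those of LINC01123 (1.87-fold, 3.94 ± 0.406 CPM in KD and 7.40 ± 0.645 CPM in parent, adjusted p = 0.00703), LINC01106 (1.83-fold, 0.00948), LINC00623 (1.76-fold, 0.0202), LINC00973 (1.42-fold, 0.0286) and LINC01128 (1.40-fold, 0.0443). LINC01123 held its call under each alternative run. By the DESeq2 test with every library, LINC01106, LINC00623, LINC00973 and LINC01128 were not called. A current list of gene names gives the name LINC00623 to the gene ID of another member, LINC00869. That row was not called (log2 fold change 0.16 ± 0.323, edgeR adjusted p = 0.777). LINC01106 was not called without KD replicate 2 (edgeR adjusted p = 0.0573). LINC00623, which has near-identical copies on chromosome 1 and so an uncertain count, was not called without KD replicate 1 (0.107) or parent replicate 2 (0.0712). LINC00973 was not called without KD replicate 1 (0.142), KD replicate 2 (0.0595), parent replicate 2 (0.0716) or parent replicate 3 (0.0851). LINC01128 was not called without KD replicate 1 (0.171), KD replicate 2 (0.135), parent replicate 2 (0.131) or parent replicate 3 (0.113).

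Of the RNAs that rose, LINC00601 was the clearest. It had 103 and 121 counts in KD, against 30, 37 and 47 counts in parent, or 7.37 ± 0.552 CPM in KD and 2.36 ± 0.385 CPM in parent. Its log2 fold change was 1.64 ± 0.183 (edgeR adjusted p = 0.00139). LINC00667 had 390 and 432 counts in KD, against 282, 299 and 332 counts in parent, a rise of 1.42-fold (27.0 ± 0.905 CPM in KD and 19.0 ± 1.26 CPM in parent, adjusted p = 0.00586). LINC00601 and LINC00667 kept their calls under each alternative run.

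The other 6 rises each depended on single libraries. All but LINC00910 were also not called by the DESeq2 test with every library (DESeq2 adjusted p of 0.122 to 0.236). LINC00528 had 14 and 17 counts in KD, against 6, 4 and 5 counts in parent (3.22-fold, edgeR adjusted p = 0.0189), and was not called without KD replicate 1 (0.102), KD replicate 2 (0.145) or parent replicate 2 (0.0584). LINC00525 had 21 and 19 counts in KD, against 10, 6 and 4 counts in parent (3.11-fold, 0.0374), and was not called without KD replicate 1 (0.195), KD replicate 2 (0.129), parent replicate 2 (0.0994) or parent replicate 3 (0.0677). LINC00910 was at 6.71 ± 1.33 CPM in KD and 3.47 ± 0.554 CPM in parent (1.93-fold, 0.0177), and was not called without KD replicate 1 (0.116) or parent replicate 2 (0.058).

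LINC00638, named VESTAR in RefSeq, was 1.85-fold higher in KD (edgeR adjusted p = 0.0284), and lost its call when KD replicate 1 (0.178) or either of parent replicates 2 (0.0645) and 3 (0.0742) was left out. LINC01003 was 1.61-fold higher (0.0444), and was not called without KD replicate 1 (0.0706), KD replicate 2 (0.233), parent replicate 2 (0.127) or parent replicate 3 (0.114). LINC00842 was 1.40-fold higher (0.0328), and was not called without KD replicate 1 (0.111), KD replicate 2 (0.134), parent replicate 1 (0.0612) or parent replicate 3 (0.0753). In all 6, both KD libraries lay above every parent library.

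**Figure D2:**
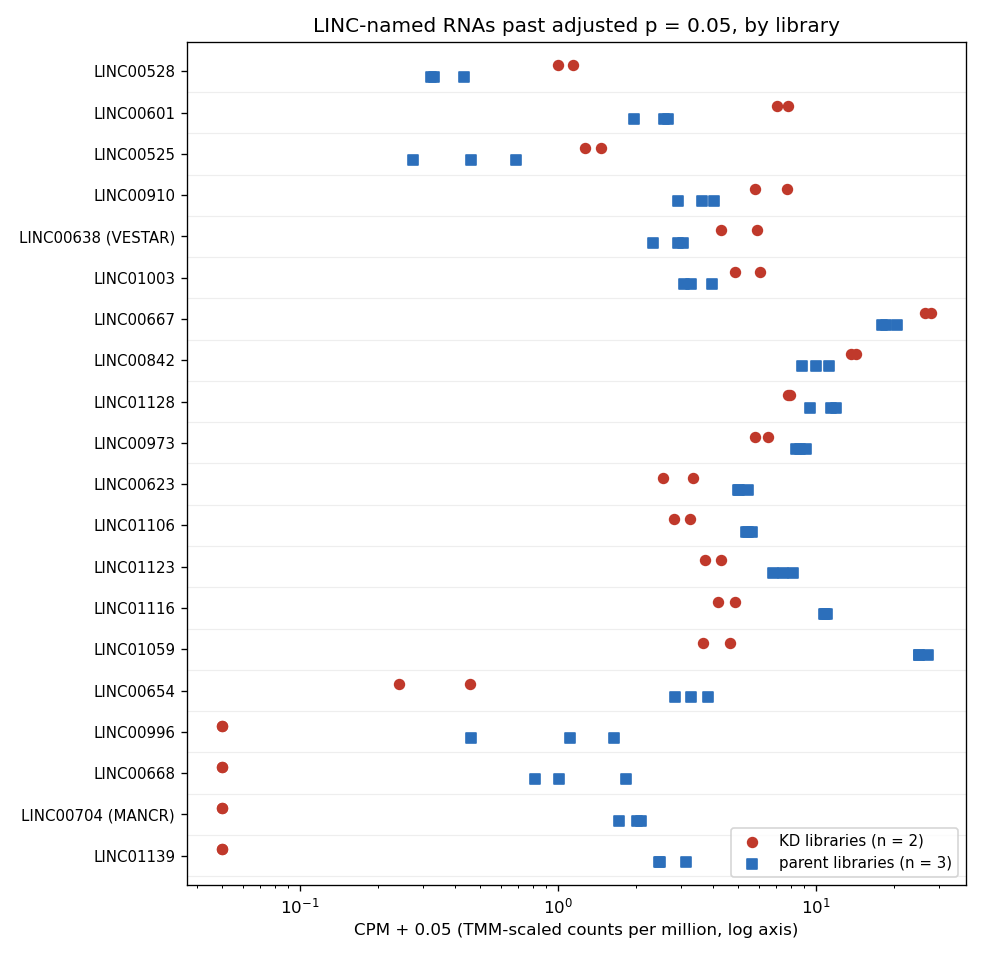
CPM plus 0.05 on a log axis for the 20 called LINC-named RNAs in each library, with KD libraries as circles and parent libraries as squares, from the highest fold change at the top to the lowest at the bottom. The groups do not overlap in any row, and the 4 RNAs at the bottom have both KD circles at 0 counts.

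The level summed over the members was set largely by 1 RNA. NORAD, which is needed for stable chromosome numbers, had 7449 and 7392 counts in KD, against 7708, 7406 and 8626 counts in parent. It held 51.2% and 49.7% of the members' counts in KD libraries and 48.8% to 49.2% in parent libraries. These are shares of reads, not of molecules, because a long transcript gives more reads. NORAD stood at 489 ± 21.7 CPM in KD and 493 ± 12 CPM in parent, with overlapping values (log2 fold change -0.01 ± 0.0507, edgeR adjusted p = 0.89). Without NORAD the members summed to 481 and 479 CPM in KD, against 515, 531 and 498 CPM in parent. These sums hold LINC01059 (4.10 CPM in KD and 25.6 CPM in parent), whose reads cannot be told apart from those of GRAMD1B. It gave 4.60 and 3.59 CPM in KD and 27.1 CPM in parent replicate 3, the lowest parent sum. With LINC01059 left out as well, the sums overlapped between the groups.

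**Figure D3:**
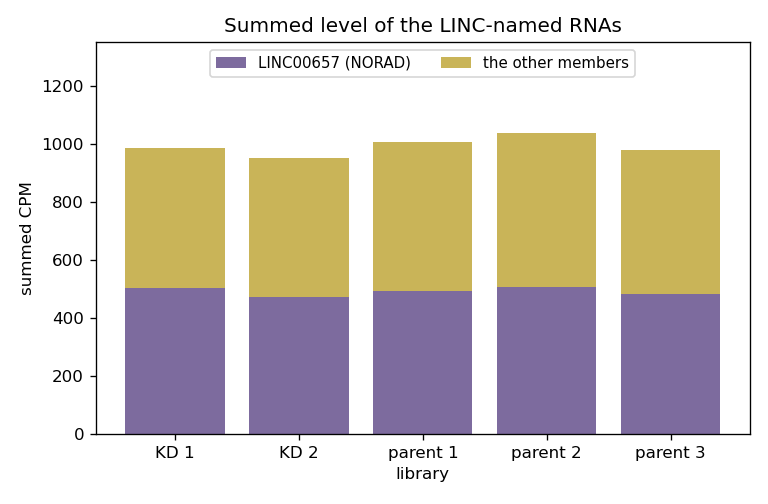
Summed CPM of the 102 LINC-named RNAs in each library, split into NORAD (purple) and the other members (yellow). The totals lie at 985 and 952 CPM in KD and between 980 and 1037 CPM in parent.

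RNAs with described roles in cancer or cell growth mostly did not pass the test. Of 18 members on such a list, written from general knowledge, none rose, 2 fell (MANCR and LINC01116) and 16 were not called, with a median log2 fold change of 0.01; 21.5% of all tested genes were called. LINC00511 had 9.48 ± 1.63 CPM in KD and 9.17 ± 0.559 CPM in parent. LINC00473, an RNA induced through the transcription factor CREB, had 4.53 ± 0.476 CPM in KD and 4.35 ± 0.290 CPM in parent. LINC00460 had 13 and 14 counts in KD and 11, 36 and 24 counts in parent, so that its parent values lay on both sides of the KD values.

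LINC00472 had 13.3 ± 0.833 CPM in KD and 11 ± 0.629 CPM in parent (adjusted p = 0.107), without overlap. PRECSIT (LINC00346) had 1.18 ± 0.234 CPM in KD and 0.694 ± 0.318 CPM in parent (0.273). LINC00963 had 11.8 ± 0.937 CPM in KD and 14.6 ± 4.01 CPM in parent (0.387), with parent replicate 1 the highest of the 5 libraries at 18.9 CPM. The other 10, LINC00467, LINC00665, LINC00662, LINC00941, ICMT-DT (LINC00337), LINC00339, LINC00205, OLMALINC (LINC00263), BRD3OS (LINC00094) and NORAD, had edgeR adjusted p-values of 0.405 to 0.89.

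RefSeq now gives 32 of the 102 members a name outside the LINC series. Of these, 11 are protein coding, 4 are antisense transcripts, 4 are divergent transcripts, 4 are hosts of small RNAs and 9 have another name. LINC01059, MANCR and VESTAR were the 3 called of these 32 (9.38%, beside 21.5% of all tested genes). MTLN (LINC00116), which encodes the mitochondrial microprotein mitoregulin, had 12.6 ± 0.814 CPM in KD and 15.5 ± 1.05 CPM in parent (adjusted p = 0.0793). SMIM30 (LINC00998), which encodes a small membrane protein, had 15.7 ± 2.43 CPM in KD and 20.9 ± 2.43 CPM in parent (0.0793). For both, the KD values lay below all parent values. SMIM26 (LINC00493) had 15.1 ± 0.346 CPM in KD and 15.7 ± 3.05 CPM in parent. MIR570HG (LINC00969), the host of a microRNA, had 17.6 ± 0.342 CPM in KD and 16.1 ± 1.81 CPM in parent (0.474).

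Neighbouring protein-coding genes were read from the RefSeq gene order, as the closest one on each side of every called member. GRAMD1B, whose RefSeq entry LINC01059 shares, is left out of these counts. Of 28 such neighbours that were tested, 12 were called (beside 25.4% of tested genes that RefSeq lists as protein coding), 9 in the direction of their member and 3 in the other. Both neighbours moved with their member at 3 loci. LINC00601 lies between ADAM12, a membrane metalloprotease, and C10orf90. ADAM12 rose 5.57-fold (12 ± 1.68 CPM in KD and 2.14 ± 0.264 CPM in parent, adjusted p = 0.000191) and C10orf90 rose 3.24-fold (5.25 ± 0.727 CPM in KD and 1.62 ± 0.150 CPM in parent, 0.00143).

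LINC00973 lies between DCBLD2, a membrane receptor-like protein, and COL8A1, a short-chain collagen. DCBLD2 fell 1.26-fold and COL8A1 1.46-fold (95.4 ± 0.347 CPM in KD and 139 ± 4.58 CPM in parent). LINC00842 lies between ANXA8L1 and NPY4R, which rose 1.83-fold and 2.13-fold. That stretch of chromosome 10 holds near-identical gene copies, so these 3 counts are uncertain. At 3 more loci 1 neighbour moved with the member: MALL, a raft-associated membrane protein, fell 9.33-fold beside LINC01123 (0.597 ± 0.209 CPM in KD and 5.62 ± 1.58 CPM in parent), TNS3, a focal adhesion protein, rose 1.5-fold beside LINC00525, and CEP170B rose 1.31-fold beside VESTAR.

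In the other direction, ARHGAP28, a GTPase-activating protein, rose 4.15-fold next to LINC00668, which was lost (75 and 77 counts in KD, against 19, 16 and 23 counts in parent, edgeR adjusted p = 0.000591). CLMP, a cell adhesion protein, rose 2.16-fold next to LINC01059, where GRAMD1B itself fell with the RNA, and GPCPD1 rose 1.29-fold next to LINC00654. The neighbours of MANCR were not called: KLF6, a transcription factor, had 151 ± 3.64 CPM in KD and 173 ± 12.5 CPM in parent (adjusted p = 0.0837), and AKR1E2 had 3.28 ± 0.431 CPM in KD and 2.80 ± 0.476 CPM in parent (0.498). MTX2 and HNRNPA3, on either side of LINC01116, were not called either (0.179 and 0.121).

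Beside 2 of the RNAs at 0 in KD stood a protein-coding gene that was also listed at 0 there, though both were too low to be tested. CHRM3, a muscarinic acetylcholine receptor, next to LINC01139, had 0 and 0 counts in KD, against 7, 8 and 13 counts in parent. GIMAP8, next to LINC00996, had 0 and 0 counts in KD, against 13, 7 and 8 counts in parent. No share of untested genes at 0 in KD is given beside this, so nothing is read from these 2 genes. Counting the nearest neighbour alone, 5 of 13 tested were called beside the called members (38.5%), and 17 of 62 beside the members not called (27.4%). By side, it was 6 of 14 at lower and 6 of 14 at higher coordinates beside the called members, and 20 of 61 and 10 of 57 beside those not called. The difference was not tested.

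**Figure D4:**
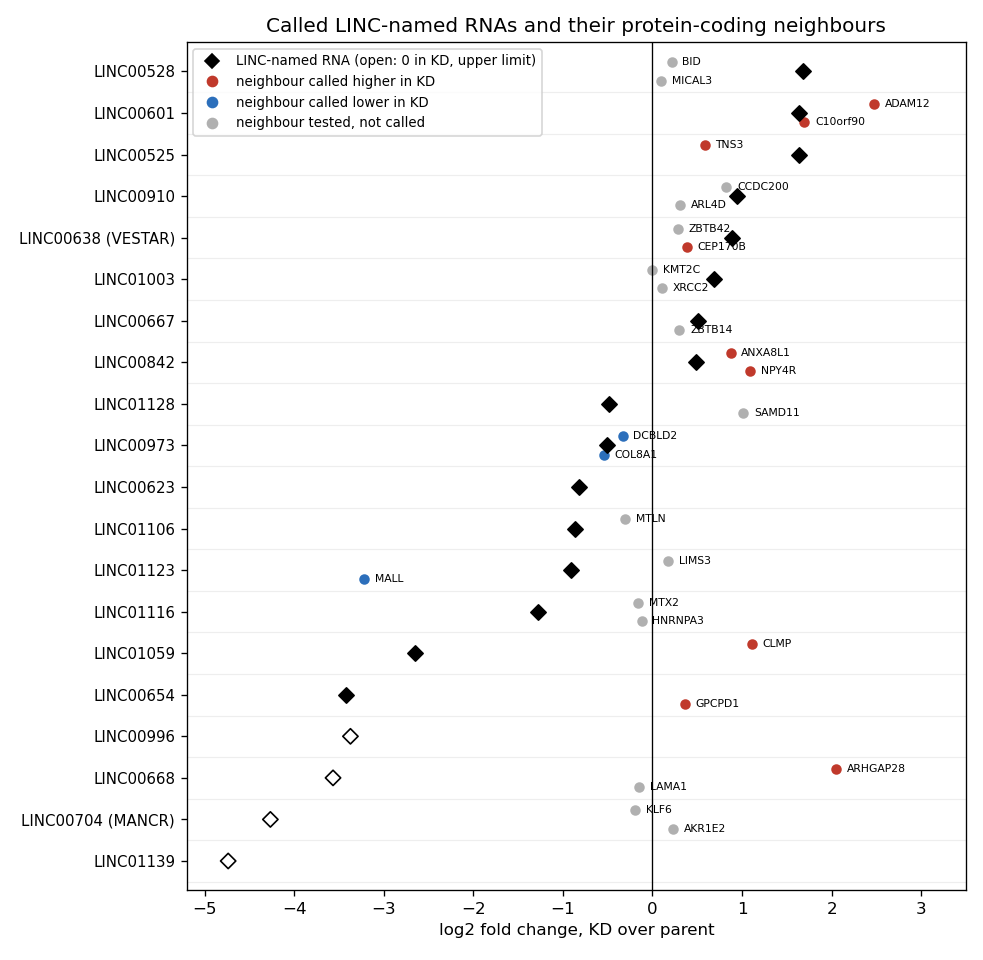
Log2 fold change of KD over parent for the 20 called LINC-named RNAs (diamonds, open where KD had no count and an upper limit is drawn) and for their tested protein-coding neighbours on both sides (circles, red called higher, blue called lower, grey not called). Neighbours of LINC00601, LINC00842 and LINC00973 lie on the same side of 0 as the RNA, and ARHGAP28, CLMP and GPCPD1 lie opposite to theirs.

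Genes that end, trim, degrade or bind noncoding transcripts were called at a rate near the background. Of 56 tested members of that list, 6 rose and 5 fell (19.6%, beside 21.5% of all tested genes), and the median of their log2 fold changes was 0.000809. The 4 with the smallest adjusted p are given. ZFC3H1, which links nuclear RNA to the exosome, fell 1.26-fold (50.8 ± 1.32 CPM in KD and 64.1 ± 1.65 CPM in parent, adjusted p = 0.0111), and the exonuclease XRN1 fell 1.24-fold (0.0133). CPSF3L, the endonuclease subunit of the Integrator complex, rose 1.21-fold (0.0185) and the cleavage factor CPSF1 rose 1.19-fold (0.0208).

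Of the 81 members not called, log2 fold changes ran from -1.54 to 0.82. The lowest, LINC01057 (SLC44A3-AS1), had 4 and 4 counts in KD, against 15, 15 and 7 counts in parent, without overlap (edgeR adjusted p = 0.108), and was called without parent replicate 3 (0.0309). LINC00847 had 14.8 ± 2.86 CPM in KD and 9.87 ± 1.63 CPM in parent (0.0574), and was chosen here for its smallest adjusted p of those not called. LINC01119, the 1 member below the filter of the test, had 8 and 28 counts in KD and 7, 8 and 11 counts in parent.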

How the data were processed

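Gene expression was read from a gene table of expected counts (estimated counts in whole numbers) that the authors deposited for 5 RNA-seq libraries. Per the submitters' processing notes, STAR, DESeq2 and the build hg19 were used; which program counted reads, on which annotation and whether by strand is not given in the sources used here. A further deposited table, made by the authors for their own comparison, gives, per the file headers, a mean signal, a log2 fold change with its error, a test score and p-values. Its negative value for APEX1 shows that it runs as KD over parent. The deposited transcript counts were not analysed here, since no map of transcripts to genes was at hand. The 2 ChIP samples were not analysed here.

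Counts were filtered with filterByExpr (minimum count 10, minimum total 15), scaled with TMM factors and tested in R 4.3.3 by edgeR 4.0.16 (quasi-likelihood F test, to which every adjusted p belongs unless another tool is named), the model holding group alone and 3 residual degrees of freedom. The p-values were Benjamini-Hochberg adjusted over 16198 genes. Levels are TMM-scaled CPM, mean ± SD, and each log2 fold change has as its SE its absolute value divided by the root of F. The code was tested on simulated data. Libraries of the same group all differed beyond sampling noise (chi-square per degree of freedom at least 3.80).

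Members, lists and the rule for named RNAs were chosen with earlier results of these data known. The rule named the called members without overlap (up to 12 each way), those at 0 in a group, the 6 with the largest mean CPM, those on a list of 30 with described roles and those renamed; LINC00116, LINC00341, LINC00493, LINC00847, LINC01057, LINC01117 and LINC01119 got values after these had been seen. All 102 members were matched to RefSeq (GRCh38.p14) by symbol or synonym. Alternatives were the size factors and the test of DESeq2 1.42.0, library totals alone, no filter, each library left out, and the replicate number as a block.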

Additional observations from a re-analysis of the deposited data

How the results depend on the processing

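Of the 20 called RNAs, 9 kept their call under each alternative run: LINC01139, MANCR, LINC00668, LINC00654, LINC01059, LINC01116, LINC01123, LINC00601 and LINC00667. No named RNA changed direction with a call. Over all named RNAs and APEX1, 548 of 604 recomputed values kept their side of the threshold, 53 lost it and 3 gained it. All 53 losses were among the 20 called RNAs, since an RNA not called has no call to lose. With 1 library left out, 10 to 20 members were called, 2 to 8 of them higher, and 1823 to 3383 genes in all; where 1 KD library remains it is assumed to vary like the parent libraries. Members called higher numbered 5 with no filter on low counts, 3 with DESeq2 (11 members called in all) and 5 with the replicate block. Over all genes, calls in either direction were 2762 of 28816 with no filter and 2707 of 19287 with DESeq2, against 3485 of 16198 in the main run. The replicate numbers are shared by 2 pairs of libraries, whose deviations correlated at 0.0868 and -0.018. With 2 KD libraries, deviations from their mean mirror each other, so these values are not separate checks and cannot decide on a pairing. The labels state none. The replicate block called 17 members, 14 of the 20 and 3 others, and 3940 genes in all. SMIM30 and LINC01057 were among those 3 (edgeR adjusted p = 0.0405 and 0.0496). In that run parent replicate 3 was alone in its block and added nothing to the fold changes, and fewer residual degrees of freedom were left. With loops of up to 12 bases, 34 promoters held the motif, and 37.8% of all promoters. With the neighbour at higher coordinates in place of the nearest, 5 called members, not 3, had a neighbour called in their direction. The transcript alternatives were not run. The causes were not tested. At these totals, 3 counts are 0.168 to 0.205 CPM in 1 library, so a member near 10 counts cannot show a change of small size.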
